A study of Mus musculus with 6 samples.

Results

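Nfatc1, Nfatc2, Nfatc3, Nfatc4, Mef2a, Mef2c, Mef2d, Hdac4, Hdac5 and Hdac9 encode the calcium-regulated transcription factors NFAT and MEF2 and 3 class IIa histone deacetylases that bind MEF2. Their transcripts were followed in mouse tibialis anterior, a limb muscle. The genes were chosen by symbol. All 10 of the 10 were measured, out of 19938 genes with a probe set of their own, by 12 of the 35557 probe sets of the table. Mef2d and Hdac4 have 2 probe sets each, and the one with the higher mean over all arrays stands for the gene unless stated. One Affymetrix array was run per sample, 3 from mice labelled MLC-SOCS-3/C57Bl6J, which carry a SOCS-3 transgene, and 3 from control C57Bl6J mice. All animals were 11 weeks old and had been starved for 6 h when the muscle was frozen. SOCS-3 is an intracellular inhibitor of cytokine and insulin receptor signalling. The labels do not spell out the promoter that MLC stands for, the founder line or the sex. The labels number the replicates without naming separate animals. The p-values therefore cover only the variation among these 6 samples, part or all of which may be technical.

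In skeletal muscle, nerve activity raises calcium in the fibre, and the phosphatase calcineurin then removes phosphates from the cytoplasmic NFAT proteins, which move into the nucleus and act on genes of slow and oxidative fibres. MEF2 proteins sit on the promoters of many muscle genes, where class IIa deacetylases hold them in check. Calcium-dependent kinases phosphorylate these deacetylases and send them out of the nucleus, which frees MEF2. Much of this control acts on phosphorylation and location, which an array of transcripts does not measure.

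None of the 10 genes passed the test between MLC-SOCS-3 and control muscle. Limma, fitted over all probe sets, called 0 of the 10 at an adjusted p under 0.05, and 0 of 35557 probe sets (0%) in the whole table. At an unadjusted p under 0.05 it was 0 of 10, against 4.86% of all genes. The differences, MLC-SOCS-3 minus control on the log2 scale, ran from -0.09 for Hdac5 to 0.09 for Mef2a. Their median was 0.016, with 6 positive and 4 negative, where 43.8% of all genes were positive. That median has no stable sign: leaving out control replicate 2 gave -0.010 and leaving out control replicate 1 gave 0.049. All genes had a median of -0.016. The 95% intervals of the 10 genes, not widened for their number, reached from 0.789 to 1.38 as a fold of MLC-SOCS-3 over control, both bounds from Nfatc4. A fold of 1.5 in intensity, in either direction, therefore lay outside the interval of each gene. RMA compresses folds of dim genes, so this does not bound the fold of the transcript.

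The labels were checked first. Socs3, the gene named by the transgene, read 7.07, 7.12 and 7.25 on the MLC-SOCS-3 arrays and 7.37, 7.41 and 7.43 on the control arrays with its brighter probe set. It was thus not higher on the arrays of the transgenic group, where all 3 values lay below the controls. The difference was -0.26 (95% interval -0.43 to -0.08) and did not pass limma's test (adjusted p = 0.799). A second, dimmer Socs3 probe set was at -0.22 (limma, adjusted p = 0.825). Whether these probes lie within the transgene is unknown here, so all directions hold for the arrays as labelled.

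The tissue was described by its marker genes, whose probes differ in affinity, so that intensities do not give amounts between genes. The 11 fibre markers had a list mean of 13.9 to 14.0 on the MLC-SOCS-3 arrays and on the controls, with the actin gene Acta1 at 14.6 and the fast myosin gene Myh4 at 14.3 over all arrays. The 8 measured T and B cell markers had a list mean of 4.70 to 4.81 on the MLC-SOCS-3 arrays and 4.80 to 4.91 on the controls. Array medians lay between 5.98 and 6.04. The fibroblast markers had a list mean of 9.87 to 10.2 on the MLC-SOCS-3 arrays and 9.84 to 9.90 on the controls, with 7 of 8 genes positive. The adipocyte markers averaged 6.69 to 6.86 on the MLC-SOCS-3 arrays and 6.52 to 6.60 on the controls, with 6 of 7 positive and no overlap between the groups. Singly, 2 of the 7 were apart, both higher, and 4 of the 7 lay above the median level. Their largest difference was 0.64, against a median of 0.17. The macrophage markers, with 9 of 10 positive, overlapped, at 6.84 to 7.18 against 6.66 to 7.04 on the controls. Their median difference of 0.09 was -0.025 without control replicate 1 and 0.20 without control replicate 2. The Schwann cell and nerve markers ran the other way, with 0 of 5 positive. They averaged 6.59 to 6.63 on the MLC-SOCS-3 arrays and 6.67 to 6.70 on the controls, without overlap, but 0 of the 5 were apart singly. The mean of all genes was 6.58 to 6.61 on the MLC-SOCS-3 arrays and 6.61 to 6.65 on the controls. No background share was computed for list means without overlap. The part of these cell types in the values of the 10 genes was not tested. In whole muscle, fewer cells of a type and less RNA per cell cannot be told apart.

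**Figure D1:**
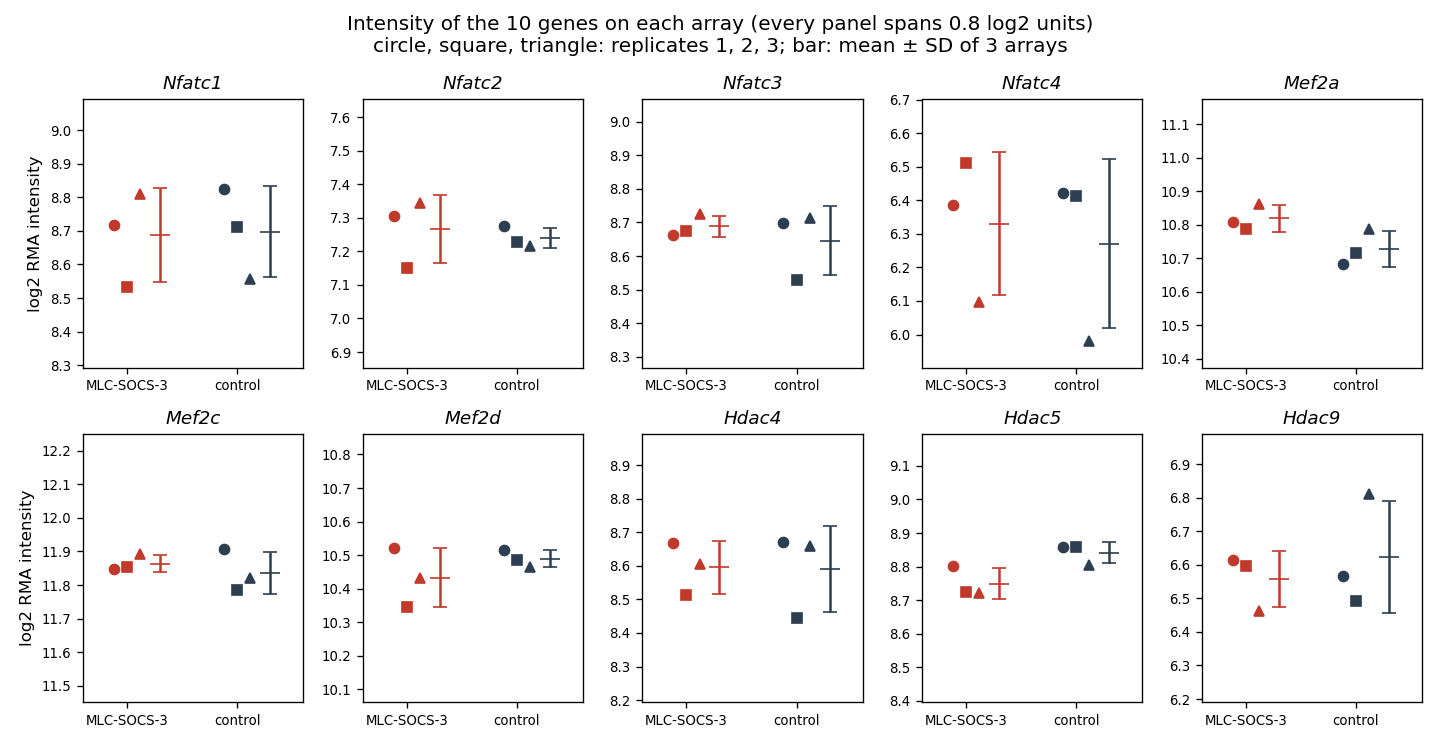
Log2 RMA intensity of each of the 10 genes on the 3 MLC-SOCS-3 arrays (left, red) and the 3 control arrays (right, dark blue), with the mean ± SD beside the points; every panel spans 0.8 log2 units. The groups overlap for 9 genes, and for Hdac5 the MLC-SOCS-3 arrays, at 8.72 to 8.80, lie just below the controls, at 8.81 to 8.86.

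The NFAT genes were measured by 1 probe set each. Nfatc1, which is needed for the slow fibre programme, read 8.72, 8.53 and 8.81 on the MLC-SOCS-3 arrays and 8.82, 8.71 and 8.56 on the control arrays. Each group had a low array, replicate 2 in MLC-SOCS-3 muscle and replicate 3 in control muscle, and the groups covered the same range. The difference was -0.01 ± 0.11 (SE, limma, adjusted p = 0.992). Nfatc2, a family member that takes part in the growth of muscle fibres after their formation, read 7.31, 7.15 and 7.34 on the MLC-SOCS-3 arrays and 7.27, 7.23 and 7.22 on the controls. The control values fell inside the spread of the MLC-SOCS-3 values, and the difference was 0.03 ± 0.07 (SE, limma, adjusted p = 0.966).

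Nfatc3, the NFAT gene with the smallest p, encodes a calcineurin-responsive factor of skeletal muscle and T cells. It read 8.66, 8.68 and 8.72 on the MLC-SOCS-3 arrays and 8.70, 8.53 and 8.71 on the controls. Control replicate 2 stood below the other 5 arrays, which lay within 8.66 to 8.72. The difference was 0.04 ± 0.08 (SE, limma, adjusted p = 0.948), and without that control array it was -0.017. Nfatc4, best known from heart and brain, read 6.39, 6.51 and 6.10 on the MLC-SOCS-3 arrays and 6.42, 6.41 and 5.98 on the controls. Replicate 3 was the low array in both groups, and the spread within each group was the widest of the 10 genes (SD 0.21 in MLC-SOCS-3 and 0.25 in control muscle). Its difference of 0.06 ± 0.16 (SE, limma, adjusted p = 0.967) has the widest interval of the 10, -0.34 to 0.46.

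Among the MEF2 genes, Mef2c varied least over the arrays of all 10 genes (SD 0.04 over the 6 arrays, against 0.21 for Nfatc4). Mef2c, which fibres need to keep their sarcomeres intact, read 11.85, 11.85 and 11.89 on the MLC-SOCS-3 arrays and 11.91, 11.78 and 11.82 on the controls. The highest and the lowest value were both controls, and the difference was 0.03 ± 0.06 (SE, limma, adjusted p = 0.963), and 0.00026 without control replicate 2. Its interval, -0.13 to 0.18, corresponds to a fold of 0.914 to 1.14. Mef2c is also expressed in endothelial cells. Their 10 markers, 3 positive and 7 negative, had a list mean of 8.654 to 8.716 on the MLC-SOCS-3 arrays. On the controls it was 8.719 to 8.772, without overlap, though the groups all but touched. Singly, 1 of the 10 markers was apart, and it was higher. The mean of all genes also ran lower, at 6.583 to 6.607 on the MLC-SOCS-3 arrays against 6.607 to 6.646 on the controls. The part of endothelial cells in the Mef2c values was not tested.

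Mef2a, a family member expressed in adult fibres, had the largest positive difference of the 10. It read 10.81, 10.79 and 10.86 on the MLC-SOCS-3 arrays and 10.68, 10.72 and 10.79 on the controls. The groups met at their edges, MLC-SOCS-3 replicate 2 at 10.786 and control replicate 3 at 10.788, and 2 of the 3 MLC-SOCS-3 arrays exceeded every control. The difference of 0.09 ± 0.06 (SE), a fold of 1.06, did not pass limma's test (adjusted p = 0.866), and an exact two-sided permutation test over the 6 arrays gave p = 0.2, where 3 against 3 arrays cannot go below 0.1.

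The 2 probe sets of Mef2d, the third MEF2 gene of adult muscle, ran in opposite directions. The brighter one read 10.52, 10.35 and 10.43 on the MLC-SOCS-3 arrays and 10.52, 10.49 and 10.47 on the controls, a difference of -0.06 ± 0.07 (SE, limma, adjusted p = 0.913). The dimmer one read 8.86, 8.80 and 8.72 on the MLC-SOCS-3 arrays and 8.74, 8.62 and 8.70 on the controls, a difference of 0.10 ± 0.07 (SE, limma, adjusted p = 0.863). Neither passed, and the groups overlapped on both. The gap between them within an array, brighter minus dimmer, was 1.66, 1.55 and 1.71 on the MLC-SOCS-3 arrays and 1.77, 1.87 and 1.77 on the controls, so that all MLC-SOCS-3 gaps were narrower. This gap was compared after the values had been seen. Its shift was -0.16 and the exact two-sided permutation test gave p = 0.1, the smallest that 3 against 3 arrays allow. The annotation ties the brighter probe set to a RefSeq transcript and the dimmer one to clone sequences of the same gene, without saying which exons they cover.

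Of the deacetylases, Hdac5 was the only one of the 10 genes whose groups did not overlap. Hdac5 represses MEF2 and leaves the nucleus when calcium-dependent kinases or protein kinase D phosphorylate it. It read 8.80, 8.72 and 8.72 on the MLC-SOCS-3 arrays and 8.86, 8.86 and 8.81 on the controls. The highest MLC-SOCS-3 value, 8.803, and the lowest control, 8.806, all but touched. The difference was -0.09 ± 0.06 (SE), a fold of 0.938, with an interval of -0.24 to 0.06 (limma, adjusted p = 0.863; exact two-sided permutation test over the arrays p = 0.1, the smallest possible). One gene of 10 with groups apart is close to the background, since 12.3% of all genes did not overlap, 7.76% with lower values in MLC-SOCS-3 muscle. The count depended on the scaling, with Mef2a and Hdac5 apart when each array was centred on its median, and 0 of the 10 genes apart after quantile normalization.

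Hdac4, the deacetylase that builds up in denervated muscle and represses Dach2, read 8.67, 8.51 and 8.61 on the MLC-SOCS-3 arrays and 8.67, 8.44 and 8.66 on the controls. Replicate 2 was the lowest array in both groups, and the difference was 0.00444 ± 0.09 (SE, limma, adjusted p = 0.996). The second Hdac4 probe set read 8.63, 8.33 and 8.37 on the MLC-SOCS-3 arrays and 8.55, 8.22 and 8.66 on the controls, a difference of -0.03 ± 0.14 (SE, limma, adjusted p = 0.980). The 2 probe sets gave opposite signs, both far inside their error, and the gap between them shifted by 0.04 (exact two-sided permutation test, p = 0.7). Hdac9, which dampens the response of muscle to denervation and is itself a target of MEF2, read 6.61, 6.60 and 6.46 on the MLC-SOCS-3 arrays and 6.57, 6.49 and 6.81 on the controls. Control replicate 3 stood above the other 5 arrays. The difference was -0.06 ± 0.10 (SE, limma, adjusted p = 0.938), and without that control array it was 0.029.

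**Figure D2:**
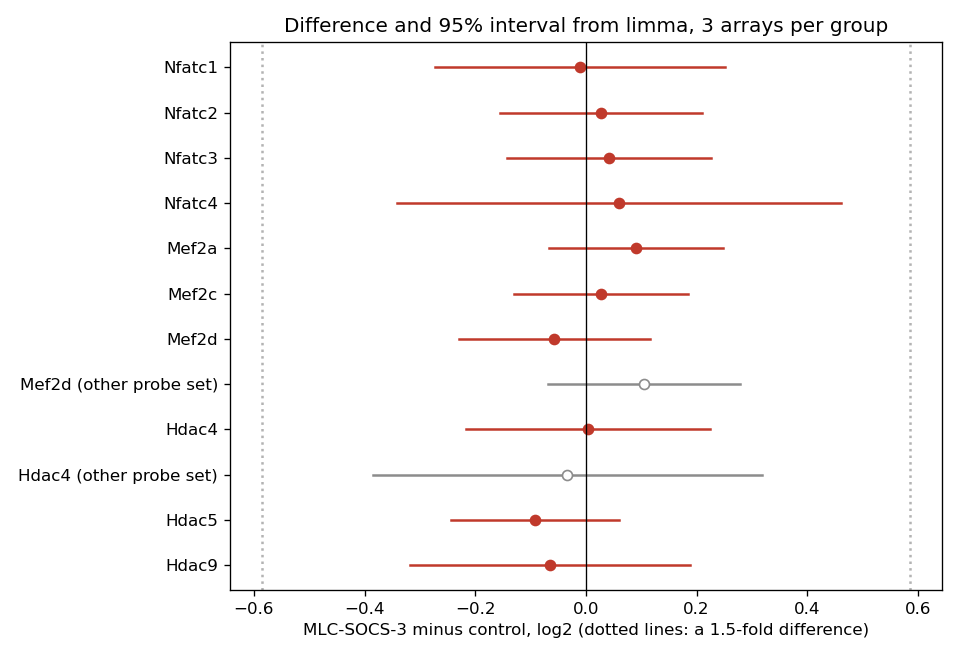
Difference of each gene, MLC-SOCS-3 minus control in log2 units, with its 95% interval from limma (3 arrays per group); open grey circles are the second probe sets of Mef2d and Hdac4, and dotted lines mark a 1.5-fold difference. Every interval spans 0 and stays inside the dotted lines, and the widest is that of Nfatc4, -0.34 to 0.46.

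The promoters of the 10 genes were searched for letters that NFAT or MEF2 proteins recognise, since the MEF2 family is known to act on genes of its own circuit. RefSeq promoters of GRCm38.p6, 250 bases before to 50 after each annotated start, were at hand for 9 of the 10 genes, 14 promoters in all. Both strands were read. The MEF2 consensus was found in 2 of these 14, against 3.19% of 32851 promoters. These 2 belong to Mef2a and Hdac5, the genes with the largest positive and the largest negative difference. Any link between a match and the differences was not tested. The core GGAAA of NFAT sites was found in 8 of the 14, against 61.3% of all promoters. A match is a description of the letters, not of binding. The 2 stretches with a MEF2 match are shown 5′ to 3′ on the minus strand, with the match in capitals, Mef2a at chr7:67372841-67372870 and Hdac5 at chr11:102230173-102230232.
Mef2a: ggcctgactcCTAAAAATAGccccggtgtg
Hdac5: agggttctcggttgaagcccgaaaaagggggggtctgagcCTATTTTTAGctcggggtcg
In Hdac5 the match runs from position -20 to -11, with the annotated start as 0. In Mef2a it runs from -2 to 7, across the start. That start is an annotated one inside the gene, whose 5′ end lies at chr7:67376456. Each match also satisfies the consensus when read on the opposite strand. Neither gene passed the test, and their differences had opposite signs.

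The genes around the 10 were described by 7 lists. Across these lists limma called 0 genes in either direction at an adjusted p under 0.05, and the medians lay between -0.019 and 0.0015, near the -0.016 of all genes. The lists on calcineurin, on MEF2 cofactors and on muscle targets each held 1 gene with an unadjusted p under 0.05, and the other 4 lists held none. All 3 of these genes were lower, and the 7 lists held 9 to 22 measured genes each. Of all 19938 genes, 3.50% had an unadjusted p under 0.05 and were lower. They were 698 of the 969 genes with such a p in either direction. Most genes with such a p were thus lower in the background too, so the direction of the 3 does not set the lists apart.

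Upstream of NFAT, 16 genes of calcineurin and its regulators were measured, 5 positive and 11 negative. Myoz2, a calcineurin-binding Z disc protein of slow fibres, read 9.13, 9.30 and 9.24 on the MLC-SOCS-3 arrays and 10.23, 9.48 and 9.52 on the controls. All MLC-SOCS-3 values were below the controls, and control replicate 1 stood well above the rest. Myoz2 was named for its small p, and 7.76% of all genes were lower without overlap, so this separation adds no support. The difference was -0.52 ± 0.21 (SE, limma, adjusted p = 0.831), and -0.28 without that control array. Akap5, an anchor of calcineurin, was at -0.23 ± 0.18 and Cabin1, an inhibitor of calcineurin and MEF2, at -0.09 ± 0.07, with the groups overlapping for both. Akap5 was at -0.072 without control replicate 3 and at -0.42 without control replicate 2. Of the 11 kinases and scaffolds that oppose NFAT, 4 were positive and 7 negative. Gsk3b, a kinase that sends NFAT out of the nucleus, was at -0.10 ± 0.06, Csnk1d, a casein kinase, at 0.08 ± 0.06, and Homer2, a scaffold that competes with calcineurin for NFAT, at 0.05 ± 0.07 (0.011 without MLC-SOCS-3 replicate 3).

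Among 22 genes of class IIa deacetylase kinases and nuclear export, 10 were positive and 12 negative. Sik1, a deacetylase kinase whose gene is itself induced within minutes by cAMP, read 7.92, 8.29 and 8.33 on the MLC-SOCS-3 arrays and 8.69, 8.90 and 8.29 on the controls. The groups overlapped at control replicate 3, and the difference was -0.45 ± 0.19 (SE, limma, adjusted p = 0.831). The calcium-dependent kinase genes Camk1 and Camk2a were at -0.11 ± 0.07 and -0.09 ± 0.07. Of 9 measured genes for other deacetylases and a corepressor subunit, 4 were positive and 5 negative, with Hdac11 at -0.18 ± 0.11, Hdac10 at -0.11 ± 0.09 and Hdac8 at 0.09 ± 0.09. Without MLC-SOCS-3 replicate 2, Hdac11 was at -0.067 and Hdac10 at -0.033, and without control replicate 1, Hdac8 was at 0.0086. Hdac7, another class IIa gene, was at -0.06 and was named outside the rule, after its value was seen.

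Mapk7 had the smallest p in the 7 lists. It encodes ERK5, a kinase that phosphorylates MEF2 proteins and raises their activity. It read 6.57, 6.64 and 6.50 on the MLC-SOCS-3 arrays and 6.87, 6.88 and 6.85 on the controls. The groups did not overlap, as for 12.3% of all genes. The difference was -0.29 ± 0.07 (SE), a fold of 0.816, with an SD of 0.07 in MLC-SOCS-3 and 0.01 in control muscle. Mapk7 was named for its small p, which had rank 193 among 35557 probe sets, so this separation adds no support. Over all probe sets it did not pass limma's test (unadjusted p = 0.00412, adjusted p = 0.746). The other 9 measured genes of this list held 5 positive and 4 negative values, with the acetyltransferase gene Ep300 at 0.13 ± 0.07 and the methyltransferase gene Carm1 at -0.07 ± 0.07 (-0.030 without control replicate 3).

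Downstream, 19 genes that NFAT or MEF2 are known to activate in muscle held 7 positive and 12 negative values. Nr4a1, an orphan nuclear receptor gene under MEF2 and class IIa deacetylases that also responds quickly to stimulation, read 11.80, 11.86 and 11.61 on the MLC-SOCS-3 arrays and 12.01, 12.46 and 12.13 on the controls. Every MLC-SOCS-3 value was below every control, and the difference was -0.44 ± 0.14 (SE, limma, adjusted p = 0.808). Nr4a1 was named for its small p, and 7.76% of all genes were lower without overlap, so this separation adds no support. The slow troponin gene Tnnt1 read 6.81, 6.90 and 6.66 on the MLC-SOCS-3 arrays and 7.03, 7.06 and 6.91 on the controls, a difference of -0.21 ± 0.09 (SE, limma, adjusted p = 0.831). Ppargc1a, the coactivator of mitochondrial genes, read 9.50, 9.50 and 10.41 on the MLC-SOCS-3 arrays and 9.55, 9.34 and 9.15 on the controls. Its difference of 0.46 ± 0.27 (SE, limma, adjusted p = 0.863) was 0.16 without MLC-SOCS-3 replicate 3. Of the 10 genes on the axis of HDAC4 and denervation, 5 were positive and 5 negative. The synaptic kinase gene Musk was at -0.24 ± 0.10, the fetal acetylcholine receptor gene Chrng at -0.26 ± 0.12 (-0.15 without MLC-SOCS-3 replicate 2) and the stress gene Gadd45a at 0.27 ± 0.14 (0.41 without control replicate 1). Chrng was dim, with a mean of 5.92 over all arrays, below the median of 5.99 over all probe sets. The 5 nerve markers given above were also negative, at -0.13 to -0.025, with the groups overlapping for each. Of all genes, 43.8% were positive. The part of nerve cells in the Musk and Chrng values was not tested.

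**Figure D3:**
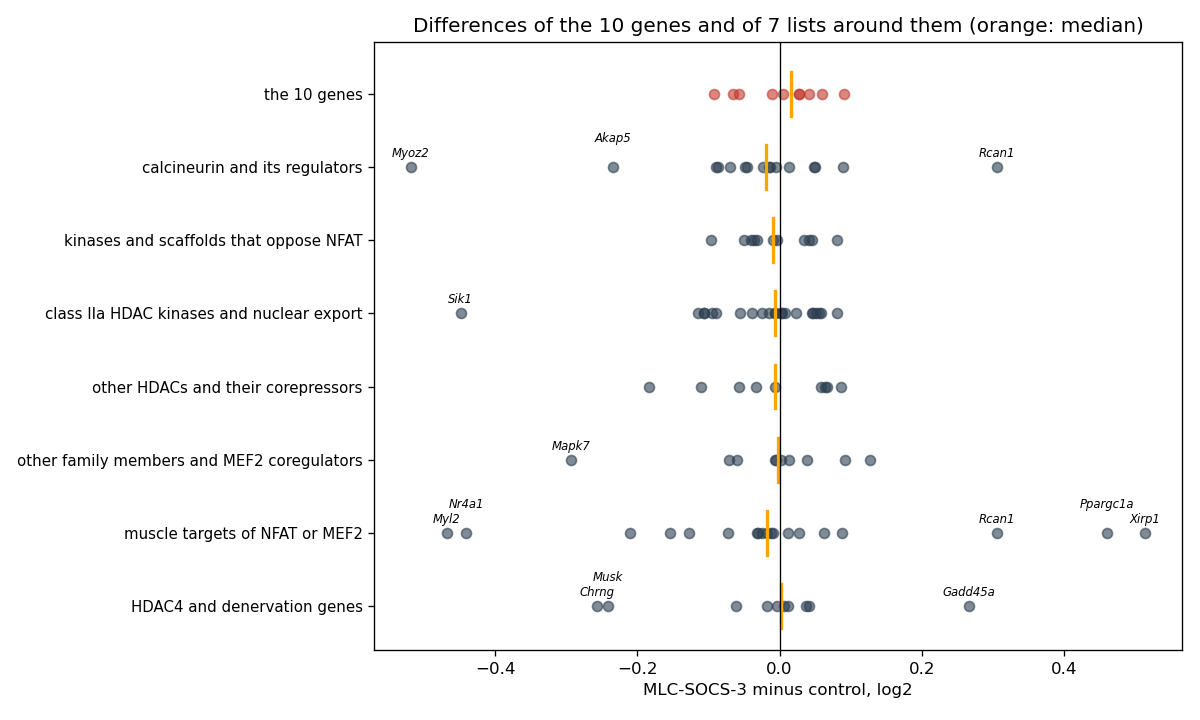
Difference of each gene, MLC-SOCS-3 minus control in log2 units, for the 10 genes (red) and the measured genes of 7 lists around them (dark blue), with the median of each row in orange and the outermost genes named. The 10 genes stay between -0.09 and 0.09, while single genes of the lists reach -0.52 (Myoz2) and 0.51 (Xirp1), and no gene shown passed limma's test at an adjusted p under 0.05.

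Some targets varied far more between arrays of the same group than the factors did. Rcan1, the calcineurin inhibitor whose transcript NFAT induces, read 9.36, 10.08 and 10.89 on the MLC-SOCS-3 arrays and 10.28, 9.50 and 9.64 on the controls. Xirp1, an actin-binding protein gene under MEF2, read 10.11, 11.02 and 11.66 on the MLC-SOCS-3 arrays and 10.99, 10.41 and 9.85 on the controls. Both were lowest on replicate 1 and highest on replicate 3 within MLC-SOCS-3 muscle, and highest on replicate 1 within the controls, and they were picked after their values had been seen. Rcan1 spanned 1.53 log2 units and Xirp1 1.81 over the 6 arrays, while the 10 genes spanned at most 0.53. The group differences, 0.31 ± 0.41 for Rcan1 and 0.51 ± 0.45 for Xirp1 (SE), were about the size of their errors.

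The genes most like a family's leading member were sought among genes above the median level whose range was at least as large. Likeness was the root mean square difference between the deviations of both genes from their own means over the 6 arrays, in log2 units. For Nfatc3 these were Hsdl2 (0.0107) and Rtca (0.0147), for Mef2a Tars (0.0171) and Vps13c (0.0192), and for Hdac5 Etl4 (0.0122) and Map1s (0.0145). They were the closest of 7653, 8179 and 9772 candidates, and 6 arrays leave many genes about as close.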

How the data were processed

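The deposited table holds log2 intensities, 1 per probe set and array. Per the submitters' processing notes, the authors ran RMA in Affymetrix Expression Console; no version is stated there. RMA corrects background, equalises the arrays and summarises probes, which compresses folds of dim and very bright genes. The values carry no counts or detection calls, so the 6 arrays limit the precision, and the intensities of different genes were not set against each other as amounts. Values were used as deposited.

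Of 35557 probe sets, 21789 have 1 symbol in the platform annotation. Symbols were updated by Entrez identifier (GRCm38.p6 table, 21698 matched). A gene with several probe sets was represented by the brightest.

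Groups were compared with limma 3.58.1 in R 4.3.3 (lmFit, eBayes, two-sided), adjusted by Benjamini-Hochberg over all probe sets at 0.05. The script was tested on simulated data. At most 36 values were identical between any pair of arrays. Genes named were the 10, Socs3, the 3 of each list with the smallest p, and the genes most like 1 member of each family; others are said to be chosen later. The members and lists were chosen with earlier results of these data known. Alternatives changed the moderation, the probe sets, the scaling, the arrays and a replicate block. Mef2b, whose probe set names several genes, was not analysed here.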

Additional observations from a re-analysis of the deposited data

How the results depend on the processing

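None of the 10 genes was called at an adjusted p under 0.05 in any setting tried, and none had an unadjusted p under 0.05. Mef2a and Hdac5 kept their sign in every setting. Mef2c did so only nominally, at 0.00026 without control replicate 2. The other 7 turned sign in at least 1 setting: Nfatc1 was at 0.0085 with arrays centred on their medians, Hdac4 at -0.011 after quantile normalization and -0.033 with its other probe set, and Mef2d at 0.10 with its other probe set. Leaving out 1 array at a time gave -0.082 to 0.066 for Nfatc1, -0.011 to 0.085 for Nfatc2, -0.017 to 0.075 for Nfatc3, -0.086 to 0.18 for Nfatc4, -0.070 to 0.046 for Hdac4, 0.00026 to 0.061 for Mef2c, -0.10 to -0.014 for Mef2d and -0.13 to 0.029 for Hdac9. The median of the 10 ran from -0.010 to 0.049. The genes without overlap numbered 2 with centred arrays (Mef2a and Hdac5), 0 after quantile normalization and 1 to 3 with an array left out. Centring moved the median of all genes to 0.0035, against -0.016 as deposited. Over the whole table, limma called 1 probe set when 1 per gene was tested, 11 of the listed probe sets with a trend and robust moderation (added after seeing the data), and 0 to 1 with an array left out; none of these was one of the 10 genes. The cause of these changes was not tested.

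With the replicate number as a block, 0 of the 10 genes were called (Mef2a adjusted p = 0.897, Hdac5 0.897). In this balanced design the block leaves the differences themselves as they are and changes only their errors. Deviations of arrays with the same number correlated across probe sets at -0.026, -0.018 and -0.043. Whether the numbers pair the samples is not stated in the labels, and correlations over all probe sets cannot decide it. The medians of the lists moved by more than the spread between replicates in 15 cases, all of cofactor, NFAT-opposing or marker lists, and no list gained a called gene.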
